A study of Arabidopsis thaliana with 6 samples.

Results

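CBF1, CBF2 and CBF3, the C-repeat binding factors of Arabidopsis thaliana, and the cold-regulated (COR) genes COR15A, COR15B, COR47, KIN1, KIN2, ERD10 and LTI30 were followed in seedlings of wild type and of a line labelled bbx14-1, named for BBX14, a gene of the B-box family of transcription factors. The 10 genes were taken by their locus identifiers, and all 10 were present among the 36917 genes of the deposited table. The samples were 3 libraries of wild-type Col-0 and 3 libraries labelled with the genotype bbx14-1 in the Col-0 background. Both groups shared the same treatment: stratification at 4 °C in the dark for 3 days on 0.5X Murashige and Skoog medium without sucrose, a white light pulse of 2 h at 100 µmol photons per square metre and second, 3 days of darkness and 1 day of light, with sampling on day 4. RNA came from plants, per the labels' protocols, and neither the organs, the number of seedlings per sample nor the kind of lesion in bbx14-1 is given in the sources used here. Nothing states that the samples of a group were grown separately, so the p-values speak only to variation among these samples, possibly technical in origin.

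CBF proteins are AP2-domain transcription factors that bind the C-repeat/dehydration-responsive element (CRT/DRE), whose core is CCGAC, in the promoters of COR genes. Cold raises CBF transcripts quickly, the circadian clock and light gate that rise, and the COR proteins made afterwards protect membranes and proteins during freezing. COR genes also respond to abscisic acid and drought through the abscisic acid-responsive element (ABRE), whose core is ACGTG.

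The CBF genes form a tandem cluster on chromosome 4 of TAIR10.1, on the minus strand, each as 1 exon block. CBF2 lies from 13015250 to 13016235, CBF3 from 13018010 to 13019400 and CBF1 from 13021780 to 13022996. COR15B (17708593 to 17710433) and COR15A (17710441 to 17712330) are adjacent on the minus strand of chromosome 2, and COR47 (7084409 to 7086873) and ERD10 (7087903 to 7089606) on the minus strand of chromosome 1. KIN1 (5209717 to 5210826) and KIN2 (5211719 to 5212743) are neighbours on the plus strand of chromosome 5, and LTI30 (18940643 to 18941611) is on the plus strand of chromosome 3. The members of these groups are close copies of each other: coding sequences were 86.3% identical between CBF1 and CBF2, 85.0% between CBF1 and CBF3, 86.7% between CBF2 and CBF3, 82.6% between COR15A and COR15B, 95.02% between KIN1 and KIN2, and 73.5% between COR47 and ERD10. How reads matching several copies were counted was not stated. Of the 50-base exon windows, 2.48% of CBF1, 3.95% of CBF2 and 0.596% of CBF3 occurred elsewhere in the nuclear genome as exact matches. The share was 0.147% for KIN1, 0.166% for KIN2 and 0 for the other members. Near matches were not searched, so reads that fit several copies with mismatches are not covered.

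In the 500 bases before the start codon, the core CCGAC, searched on both strands, was found in all 7 COR genes and in none of the 3 CBF genes, where 23.4% of the 27443 such windows of nuclear protein-coding genes hold it. These sites, printed because CBF proteins are known to bind this core, follow as 30-base stretches of the gene's own strand, read from RefSeq TAIR10.1, with CCGAC in capitals. For genes with more than 1 site, the stretch shown is the one on the gene's strand nearest to the start codon, and the ERD10 stretch holds 3 overlapping copies.
COR15A (chr2:17712215-17712244, minus strand): acaatttcatggCCGACctgcttttttttt
COR15B (chr2:17710121-17710150, minus strand): acaacttgatggCCGACctcttttttcttt
KIN1 (chr5:5209802-5209831, plus strand): gataaatagctaCCGACataaggcaaaact
KIN2 (chr5:5211769-5211798, plus strand): aataaaaagctaCCGACataaggcaaaaat
COR47 (chr1:7085915-7085944, minus strand): gatattcatctaCCGACttcaagaaataag
ERD10 (chr1:7089364-7089393, minus strand): ttcatccaCCGACCGACCGACgtaaaagaa
LTI30 (chr3:18940553-18940582, plus strand): accactactacaCCGACgtcttacttgcca
Between the adjacent genes, 27 of 30 bases were identical for KIN1 and KIN2, 25 of 30 for COR15A and COR15B, and 21 of 30 for COR47 and ERD10, aligned at the first ERD10 copy. The sites lie 178 (KIN1), 185 (KIN2), 260 (LTI30), 265 (COR15B), 266 (COR15A), 268 (COR47) and 278 (ERD10, first copy) bases before the start codon. Those of all but LTI30 fall inside the annotated transcript, since the annotated 5′ ends of the other COR genes lie 247 to 1209 bases upstream of the start codon.

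The ABRE core ACGTG occurred in 9 of the 10 windows (34.9% of all windows), with ERD10 the exception, and the G-box CACGTG, which contains it, in 6 (9.34% of all windows). The evening element AAAATATCT, a target of MYB-like clock proteins, was found before CBF3, COR15A, COR15B, KIN2 and LTI30 (4.02% of all windows). The G-boxes of CBF1 and CBF2 and the evening element of CBF3, in capitals, are printed as the matches to these motifs in the factor genes. The CBF1 and CBF2 stretches share 24 of 30 bases. The CBF1 G-box and the CBF3 evening element fall inside the annotated transcript, and the CBF2 G-box lies upstream of it.
CBF1 (chr4:13022820-13022849, minus strand): ctatgtactataCACGTGtcattcacagag
CBF2 (chr4:13016320-13016349, minus strand): ctgtttcttatcCACGTGgcattcacagag
CBF3 (chr4:13019174-13019203, minus strand): ttttgcctctAAAATATCTtccgccattat
These matches describe letters in a window and not bound sites.

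**Figure D1:**
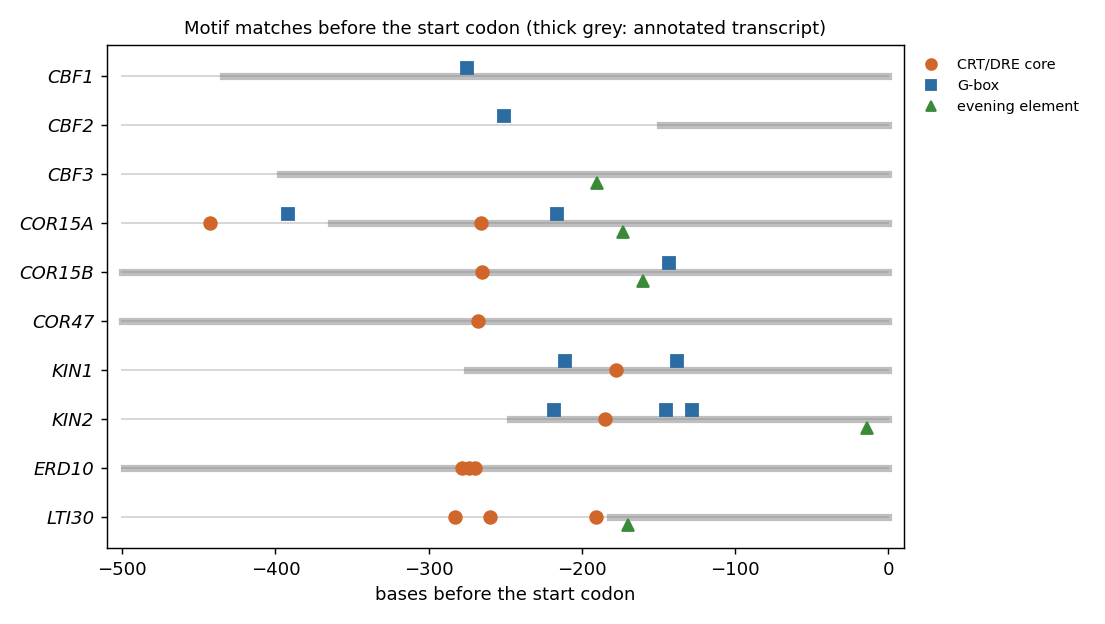
Position of motif matches on either strand in the 500 bases before the start codon (x axis, bases) of the 10 genes (y axis); circles mark CCGAC, squares CACGTG, triangles AAAATATCT, and the thick grey line the annotated transcript. Circles stand in the 7 COR rows and in no CBF row.

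Recovered depth was 20939505 to 32621183 reads per library, of which 9816440 to 14677324 fell on nuclear genes. BBX14 itself, measured as a check of the labels, had 540, 683 and 517 normalized counts in wild-type replicates 1 to 3 and 649, 761 and 892 in the libraries labelled bbx14-1. Its transcript was therefore not lower there (log2 fold change 0.40, SE 0.13, limma adjusted p = 0.0726), and the group is called by its label throughout. All levels are normalized counts, that is, reads scaled by the size factor of their library, and differences are log2 fold changes of the libraries labelled bbx14-1 minus wild type on the log2(normalized count + 1) scale. limma was run on genes averaging 10 or more normalized counts, and a Benjamini-Hochberg adjusted p under 0.05 over all 19003 tested genes was called.

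Of the 9 members that passed the filter on low values, 4 were called lower (CBF3, COR15B, KIN2 and LTI30) and 0 higher, against 4.65% of all tested genes called in either direction, 2.14% lower and 2.51% higher. The median log2 fold change of the 9 was -0.54, beside 0.003 over all tested genes. The members were chosen with earlier results of these data known, so their count of calls is descriptive. The remaining members, CBF1, CBF2, COR15A, COR47 and ERD10, were tested and not called, and KIN1 was below the filter. The count of 4 rests partly on single libraries: it was 1 without wild-type replicate 3 and 2 without the third library labelled bbx14-1. It was also 1 when limma's variance trend was left out. In bulk RNA, fewer cells that express a gene and less RNA per cell cannot be told apart.

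**Figure D2:**
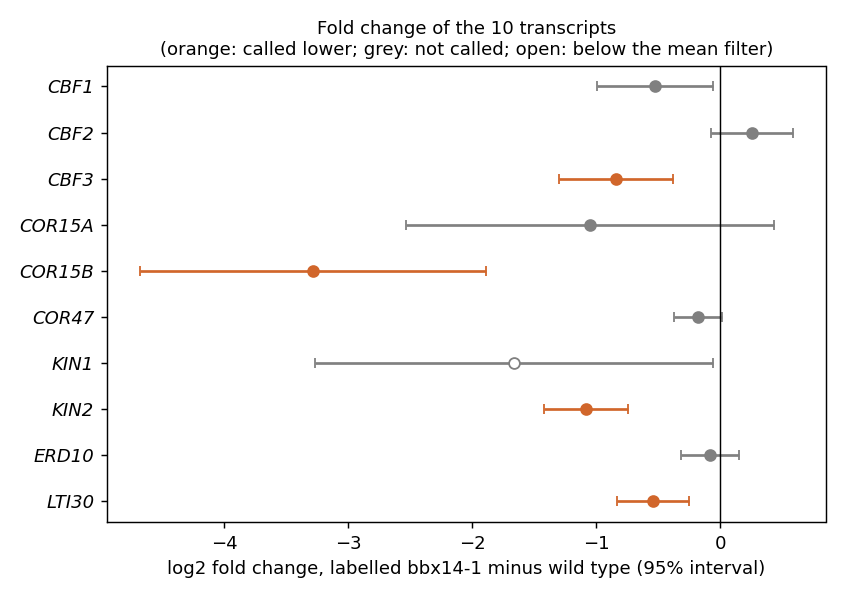
Log2 fold change (x axis, libraries labelled bbx14-1 minus wild type, 3 libraries each) with its 95% interval from limma for the 10 genes. Orange points are called lower, grey ones are not called, and the open point, KIN1, comes from the fit without a filter; CBF2 is the member to the right of 0, at 0.26.

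Among the factors, CBF3 was called lower and CBF1 and CBF2 were not called. Differences among these factors were not tested. CBF3 (AT4G25480, also DREB1A) had 140, 116 and 184 normalized counts in wild-type replicates 1 to 3 and 84.0, 94.6 and 64.0 in the libraries labelled bbx14-1. Every wild-type library exceeded every library labelled bbx14-1. CBF3 fell by 0.84 on the log2 scale (SE 0.22, 95% interval -1.30 to -0.38, limma adjusted p = 0.0284), from a mean of 146 ± 34.5 to 80.9 ± 15.5 (SD, n = 3). Dropping wild-type replicate 1 or 3, or bbx14-1 replicate 1 or 3, ended this call (log2 fold change -0.88 to -0.66, limma adjusted p from 0.0526 to 0.197), as did leaving out limma's variance trend (adjusted p = 0.198). A long non-coding RNA gene, AT4G07385, overlaps CBF3 by 29 bases on the opposite strand and was at 0 in every library.

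CBF1 (AT4G25490, DREB1B) had 193, 133 and 173 normalized counts in wild type and 78.4, 161 and 117 in the libraries labelled bbx14-1. The second library labelled bbx14-1 lay above the lowest wild-type library, so the groups overlapped. Its log2 fold change was -0.53 (95% interval -0.99 to -0.06, limma adjusted p = 0.222). CBF2 (AT4G25470, DREB1C) had 400, 329 and 307 normalized counts in wild type and 299.8, 486 and 474 in the libraries labelled bbx14-1. Here bbx14-1 replicates 2 and 3 were the highest of all and bbx14-1 replicate 1 was the lowest. Its log2 fold change was 0.26 (95% interval -0.07 to 0.59, limma adjusted p = 0.453).

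Summed per kilobase of exon, the CBF genes reached 526 to 665 normalized counts per kb in wild type (mean 592 ± 69.8, SD, n = 3) and 429 to 693 in the libraries labelled bbx14-1 (mean 582 ± 137, SD, n = 3), and these ranges overlapped. CBF2 made up 61.0%, 63.4% and 53.1% of that sum in wild-type replicates 1 to 3 and 70.9%, 71.1% and 77.2% in the libraries labelled bbx14-1. CBF1 made up 20.8% to 24.3% in wild type and 15.01% to 19.1% in the libraries labelled bbx14-1, and CBF3 15.1% to 22.5% and 7.39% to 14.1%. None of the 3 shares overlapped between the groups, but they are parts of 1 sum and not separate results. Of the 3 levels themselves, only that of CBF3 did not overlap, where 10.6% of all tested genes were lower without overlap. CBF2 exceeded CBF3 by 2.36 to 4.05 times per kb in wild type and by 5.04 to 10.4 times in the libraries labelled bbx14-1. These shares were computed after the values were seen and are given without a test. Values per kb here and below rest on RefSeq exon lengths, and the annotation used for counting is not given in the sources used here.

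**Figure D3:**
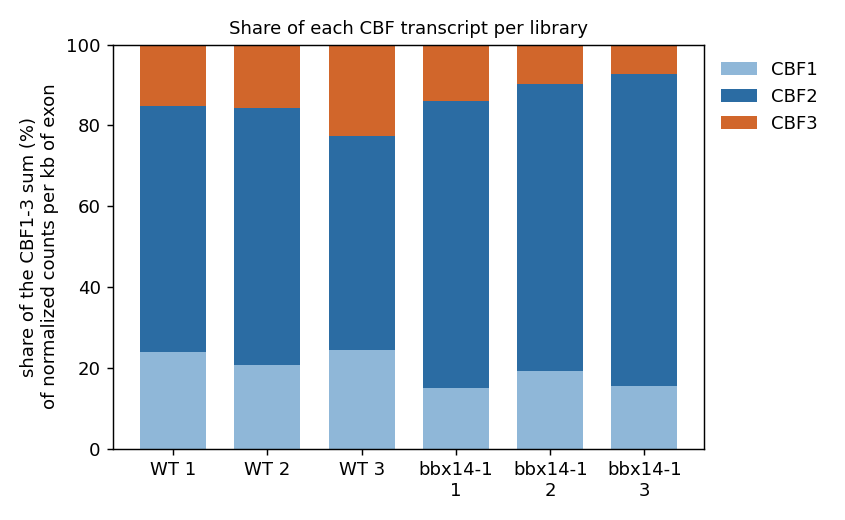
Share (y axis, %) of CBF1, CBF2 and CBF3 in their summed normalized counts per kb of exon, one bar per library (x axis). The CBF2 share is 53.1% to 63.4% in the wild-type bars and 70.9% to 77.2% in the bars labelled bbx14-1.

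COR15A and COR15B encode chloroplast stromal proteins that stabilise membranes during freezing. Their transcripts were at low levels in every library, and that of COR15B was lower in the libraries labelled bbx14-1. COR15B (AT2G42530) had 29.4, 16.3 and 42.4 normalized counts in wild-type replicates 1 to 3, from 35, 13 and 42 reads. The libraries labelled bbx14-1 had 1.599, 2.15 and 2.00, from 2 reads each, which is under the floor of 3 reads. COR15B fell by 3.29 on the log2 scale (SE 0.68, 95% interval -4.68 to -1.89, limma adjusted p = 0.00409). Since that value depends on the pseudocount at 2 reads per library, the pooled reads were also compared. They were 90 in wild type against 6, a ratio of 16.0 after size factors. Its exact 95% interval, 7.08 to 44.8, covers counting error only and takes reads as independent. Several genes had even counts in every library, for example LHY with 88, 86, 112, 202, 260 and 214. If both mates of a read pair were counted, the interval is too narrow. The call was lost without wild-type replicate 3, the library with the most COR15B (log2 fold change -2.98, limma adjusted p = 0.0699). COR15B overlaps the gene AT2G42520 on the opposite strand by 468 bases, and the strand setting of the counting is not given in the sources used here. AT2G42520 itself had 352 to 426 normalized counts in wild type and 319 to 350 in the libraries labelled bbx14-1 (log2 fold change -0.18, limma adjusted p = 0.543).

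COR15A (AT2G42540) had 20.2, 5.02 and 25.2 normalized counts in wild type and 3.20, 4.30 and 16.0 in the libraries labelled bbx14-1, from 4 to 25 reads per library. Wild-type replicate 2 and the third library labelled bbx14-1 crossed between the groups. The log2 fold change was -1.05 with a 95% interval of -2.53 to 0.44 (limma adjusted p = 0.51), an interval that spans 0 at this depth.

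KIN1 and KIN2 encode small hydrophilic proteins induced by cold and abscisic acid, and their levels differed widely although their coding sequences are alike. KIN2 (AT5G15970, COR6.6) had 367, 330 and 539 normalized counts in wild-type replicates 1 to 3 and 216, 176 and 180.1 in the libraries labelled bbx14-1. The lowest wild-type library stood well above the highest library labelled bbx14-1. KIN2 fell by 1.08 on the log2 scale (SE 0.16, 95% interval -1.42 to -0.74, limma adjusted p = 0.000187), a 2.11-fold lower level. It was called in each of the 6 fits that leave out 1 library (log2 fold change -1.22 to -0.87, limma adjusted p from 5.65e-05 to 0.00365), but not without limma's variance trend (adjusted p = 0.133).

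KIN1 (AT5G15960) had 16.0, 5.02 and 22.2 normalized counts in wild type and 9.59, 0 and 6.002 in the libraries labelled bbx14-1, from 45 and 18 reads in all. With reads taken as independent, a count of 0 in the second library labelled bbx14-1 allows up to 3.22 normalized counts. Its mean lay below the filter, and without a filter its log2 fold change was -1.67 (95% interval -3.27 to -0.06, limma adjusted p = 0.329, with 3.27% of 25338 genes called). The groups overlapped through wild-type replicate 2.

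The dehydrins, disordered hydrophilic proteins that accumulate in cold and drought, included 1 called member, LTI30, and 2 that were not called, COR47 and ERD10. The difference between them was not tested. LTI30 (AT3G50970, XERO2) had 448, 595 and 667 normalized counts in wild-type replicates 1 to 3 and 408, 423 and 333 in the libraries labelled bbx14-1. The groups did not overlap, although wild-type replicate 1 came close to the libraries labelled bbx14-1. LTI30 fell by 0.54 (SE 0.14, 95% interval -0.83 to -0.25, limma adjusted p = 0.0227), and dropping wild-type replicate 2 or 3, or bbx14-1 replicate 3, ended the call (log2 fold change -0.50 to -0.42, limma adjusted p from 0.0748 to 0.162), as did leaving out limma's variance trend (adjusted p = 0.279).

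COR47 (AT1G20440) had 2777, 2775 and 2754 normalized counts in wild type and 2210, 2331 and 2833 in the libraries labelled bbx14-1. The third library labelled bbx14-1 was the highest of all 6, and the log2 fold change was -0.18 (95% interval -0.37 to 0.01, limma adjusted p = 0.348). ERD10 (AT1G20450), its neighbour, had 553, 608 and 684 in wild type and 555, 554.5 and 628 in the libraries labelled bbx14-1, with a log2 fold change of -0.08 (95% interval -0.32 to 0.15, limma adjusted p = 0.789). Per kb of exon, COR47 exceeded ERD10 by 2.82 to 3.51 times in wild type and by 2.79 to 3.16 times in the libraries labelled bbx14-1.

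**Figure D4:**
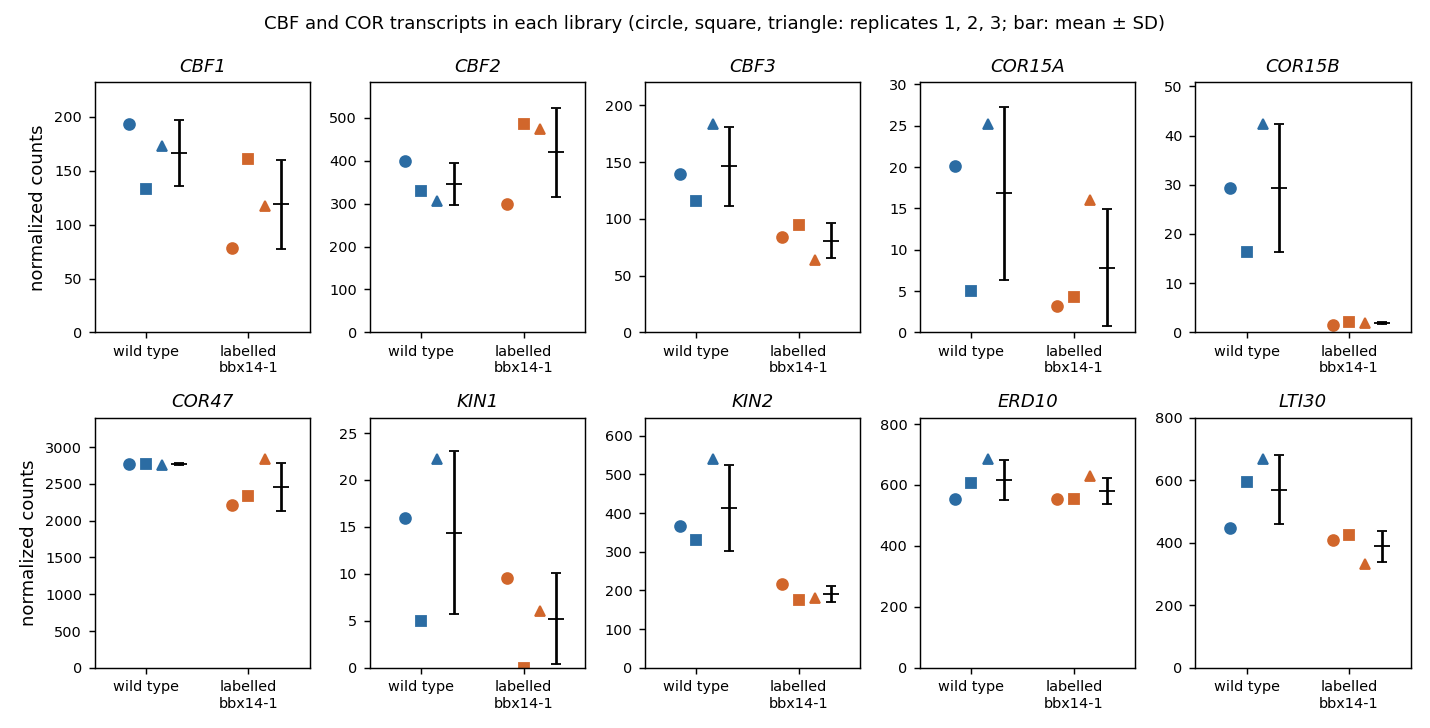
Normalized counts (y axes, each from 0) of the 10 genes in every library; blue symbols are wild type and orange symbols the libraries labelled bbx14-1, circle, square and triangle are replicates 1, 2 and 3, and the bar is the mean ± SD. The groups do not overlap for CBF3, COR15B, KIN2 and LTI30.

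The groups did not overlap for 4 members, all lower in the libraries labelled bbx14-1, where 10.6% of all tested genes were lower without overlap. This count too is descriptive, since the members were chosen with earlier results of these data known. Among wild-type libraries, replicate 3 was the highest for 7 members (CBF3, COR15A, COR15B, KIN1, KIN2, ERD10 and LTI30) and replicate 1 for the other CBF genes and COR47. Replicate 2, the shallowest library, was the lowest for 6 members (CBF1, CBF3, COR15A, COR15B, KIN1 and KIN2).

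Per kb of exon, the 10 transcripts spanned a wide range in wild type. COR47 led with 1193 ± 5.34 normalized counts per kb (SD, n = 3), followed by LTI30 (588 ± 115) and KIN2 (549 ± 148), whose ranges overlapped. ERD10 (379 ± 40.3) and CBF2 (350.2 ± 49.6) came next and overlapped each other, then CBF1 (137 ± 25.2) and CBF3 (105 ± 24.8), which also overlapped. COR15B (18.5 ± 8.22), KIN1 (17.4 ± 10.5) and COR15A (10.6 ± 6.64) stood lowest, with overlapping ranges. In the libraries labelled bbx14-1, COR47 again led (1059 ± 142), while CBF2 (426 ± 106), LTI30 (400.5 ± 49.8) and ERD10 (357 ± 26.1) overlapped and KIN2 (254 ± 29.1) came below them. With the RefSeq exon lengths, KIN2 thus exceeded ERD10 per kb in every wild-type library and lay below it in every library labelled bbx14-1. CBF1 (97.7 ± 34.1) and CBF3 (58.1 ± 11.1) followed, the lowest CBF1 value of 64.4 lying within the CBF3 range of 46.03 to 68.0. KIN1 (6.27 ± 5.85), COR15A (4.95 ± 4.48) and COR15B (1.21 ± 0.18) ended the order.

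Genes upstream and beside the CBF factors were counted from lists of known pathway genes. These lists were chosen with earlier results of these data known, so their counts of calls are descriptive. Of all tested genes, 4.65% were called, 2.14% lower and 2.51% higher. Without limma's variance trend, the clock and light list held 5 calls in place of 10, and each other related list 0. Of the related genes named, PRR5, COR27, TOC1 and COR28 were then still called (limma adjusted p from 0.0211 to 0.0338), whereas RD29A (adjusted p = 0.0667), BAM3 (0.0903), RAB18 (0.0983), LHY (0.1604), RAV1 (0.178), GRP7 (0.1801), RCI2B (0.182), CRC (0.191), SOC1 (0.152), PIF4 (0.256) and DREB2A (0.168) were not. Of 18 tested regulators of CBF genes, among them ICE1, the CAMTA factors and the kinase OST1, 1 was called lower and 1 higher, with a median log2 fold change of 0.06. SOC1, a MADS-box repressor of CBF genes, fell by 0.62, from 276 ± 27.1 to 179.6 ± 19.8 normalized counts (SD, n = 3, limma adjusted p = 0.018). PIF4, a phytochrome-interacting factor that represses CBF genes, rose by 0.41, from 946 ± 102 to 1257 ± 103 (SD, n = 3, limma adjusted p = 0.0192). The SOC1 call ended on dropping wild-type replicate 3 or bbx14-1 replicate 2 or 3 (limma adjusted p from 0.0562 to 0.113), and the PIF4 call on dropping wild-type replicate 1 or bbx14-1 replicate 2 or 3 (limma adjusted p from 0.068 to 0.158). Of 6 other tested DREB factors, DREB2A, a drought- and heat-responsive factor that binds the same element, was the 1 called lower, with 0 higher. It fell by 1.06, from 132 ± 28.7 to 63.3 ± 16.0 (SD, n = 3, limma adjusted p = 0.0102). Dropping wild-type replicate 1 or bbx14-1 replicate 1 ended that call (limma adjusted p = 0.106 and 0.0601). The list's median was -0.30. Of 10 tested transcription factors that cold induces in parallel with CBF genes, RAV1 was called lower (log2 fold change -0.59, limma adjusted p = 0.000638), 0 were higher, and the median was -0.15.

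Of 16 tested clock and light genes linked to CBF control, 9 were called lower and 1 higher, with a median log2 fold change of -0.55. Over all tested genes, 2.14% were called lower and 2.51% higher. This list too was chosen with earlier results of these data known. COR27 and COR28, cold- and light-regulated clock repressors, were both lower. COR27 went from 276 ± 65.3 normalized counts in wild type to 40.1 ± 4.93 (SD, n = 3; log2 fold change -2.73, limma adjusted p = 2.29e-08). COR28 went from 299.5 ± 45.8 to 78.5 ± 12.2 (SD, n = 3; log2 fold change -1.92, limma adjusted p = 3.23e-07). PRR5, a pseudo-response regulator that represses CBF genes, was at -1.70, and its relative TOC1 at -1.10 (limma adjusted p = 1.87e-10 and 3.60e-08). LHY, a MYB-like activator of CBF genes, rose by 1.13 (limma adjusted p = 0.00179), while its partner CCA1 was at 0.35 and not called (limma adjusted p = 0.0806). The part of these clock differences in the values of the CBF and COR genes was not tested.

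Other cold-regulated genes went both ways. Of 16 tested, 4 were called lower and 1 higher, beside 2.14% and 2.51% of all tested genes. The median log2 fold change of the list was -0.17. RD29A, whose promoter is the classic CRT/DRE target, fell by 1.43 from 1314 ± 51.3 to 493 ± 111 normalized counts (SD, n = 3, limma adjusted p = 7.65e-08). BAM3, a chloroplast beta-amylase, fell by 0.89, and GRP7, a clock-regulated RNA-binding protein, by 0.81 (limma adjusted p = 0.000141 and 0.000305). RCI2B, a small membrane protein with a close copy in RCI2A, rose by 0.96 from 172 ± 50.9 to 327 ± 39.3 (SD, n = 3, limma adjusted p = 0.00182). Of 4 other tested dehydrins RAB18, responsive to abscisic acid, was the 1 called lower (log2 fold change -1.75, limma adjusted p = 0.000221), 0 were higher and the median was -0.34. On the opposite strand, other genes overlap DREB2A by 73 bases, BAM3 by 13 and 518 bases and RAB18 by 11 bases, and none of these partners was called, the partner sharing 518 bases with BAM3 being at 0 in every library.

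**Figure D5:**
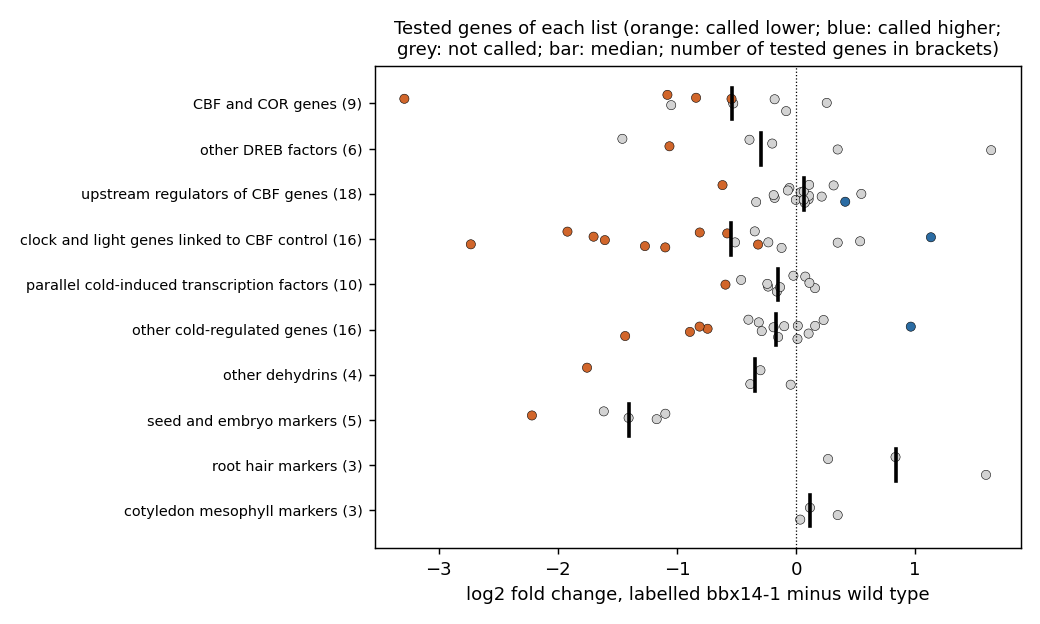
Log2 fold change (x axis, libraries labelled bbx14-1 minus wild type) of each tested gene in the lists (y axis, number tested in brackets); orange is called lower, blue called higher, grey not called, and bars are medians. The clock and light list holds 9 of its 16 genes in orange, the regulators of CBF genes 1 of 18. Over all tested genes 2.14% were called lower, and the lists were chosen with earlier results of these data known.

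Markers of other tissues were summed per library. The summed level of 8 seed and embryo genes was 659, 181 and 208 normalized counts in wild-type replicates 1 to 3 and 91.9, 94.6 and 105 in the libraries labelled bbx14-1; CRC, a seed storage protein gene, was the 1 of 5 tested that was called (log2 fold change -2.22, limma adjusted p = 0.00146). Without wild-type replicate 1 the CRC value was -1.52 (limma adjusted p = 0.0369). All 5 tested seed and embryo genes had a log2 fold change below 0, with a median of -1.41. EM1, an embryo gene, was at 0 reads in every library. The summed level of 3 root hair genes was 76.7 to 126 in wild type and 144 to 206 in the libraries labelled bbx14-1. That of 3 cotyledon photosynthesis genes was 262263 to 283383 and 284387 to 341098. In both lists 0 of 3 were called, beside 4.65% of all tested genes. The median log2 fold change was 0.83 for the root hair genes and 0.12 for the cotyledon genes. The part of these marker levels in the COR values was not tested.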

How the data were processed

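The authors deposited normalized counts per gene, which are read counts scaled by one size factor per library, for 3 wild-type and 3 bbx14-1 libraries of rRNA-depleted, strand-specific (dUTP) RNA-seq. Per the submitters' processing notes, the genome build was TAIR10 and the tools included DESeq2, featureCounts, TopHat2 2.1.1, FastQC and Trimmomatic, with no order or role stated. How multiply matching reads were counted, the annotation release and the strand setting: not given in the sources used here. Dividing each library by its smallest non-zero value gave whole reads for 100% of values (tolerance 0.01). A floor of 3 reads equals 2.40 to 3.77 normalized counts and, like the counting intervals, covers counting error only, with reads taken as independent. Libraries of a group differed by more than sampling noise (chi-square per degree of freedom at least 8.08).

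limma 3.58.1 (R 4.3.3) was run on genes averaging 10 or more normalized counts, on log2(value + 1) with a variance trend; p-values were two-sided and adjusted over all tested genes. The fit was run on simulated counts whose variance followed the mean smoothly. That run cannot decide whether the variance trend suits the deposited data. The planned edgeR quasi-likelihood and DESeq2 alternatives were not run, neither on the deposited normalized counts nor on the recovered reads. The voom method of limma on recovered reads, chosen after seeing the data, took their place. Sequences, positions and exon lengths are from RefSeq TAIR10.1, matched by locus identifier; motifs were searched in the 500 bases before the start codon, a window set after the annotation was seen. Identity was computed on coding sequence. The members and gene lists were chosen with earlier results of these data known. The text names all 10 members, up to 4 called genes with the smallest adjusted p per list, RD29A, CCA1, LHY, PRR5, COR27 and COR28, and neighbours that overlap a member. Outside that rule, ICE1, the CAMTA factors, OST1 and EM1 are named as examples of their lists, RCI2A as a close copy and BBX14 as a check of the labels. Genes that overlap a named related gene are mentioned as well.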

Additional observations from a re-analysis of the deposited data

How the results depend on the processing

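Every member kept the sign of its log2 fold change in all settings tried, and CBF1, CBF2, COR15A, COR47, ERD10 and KIN1 were called in none of them. Without limma's variance trend, 28 genes were called, 13 higher and 15 lower, and 1 member (COR15B); CBF3, KIN2 and LTI30 kept -0.84, -1.08 and -0.54 but not their calls (limma adjusted p = 0.198, 0.133 and 0.279). Leaving out 1 library at a time gave 525 to 766 called genes, 279 to 440 higher and 246 to 406 lower, and 1 to 4 members called lower. Over these fits CBF3 ran from -0.995 to -0.66, COR15B from -3.64 to -2.98 and LTI30 from -0.71 to -0.42, and the uncalled KIN1 from -2.33 to -0.63 and COR15A from -1.70 to -0.64, with the lost calls given beside each result. A pseudocount of 5, no filter, quantile normalization, scaling on nuclear genes and voom on recovered reads changed no call of a member; COR15B ranged from -3.74 to -2.24 among all settings. The replicate numbers did not pair the libraries (correlations of deviations between equal numbers 0.04, 0.02 and -0.03 over 19003 genes), and a fit blocked on those numbers called 915 genes and no member's call changed. The cause of these shifts was not tested. Of 117 recomputed counts of called genes in the related lists, 94 stayed within 1.5 times the reported count. A count of 0 against a reported 0 was taken as unchanged. That was so for most recomputed counts of the root hair and cotyledon lists, so the tally says little about them. COR15A, COR15B and KIN1, with 42 reads or fewer per library, are limited by depth.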
